A study of Vitis vinifera with 6 samples.

Results

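Sugar transporters and invertases were examined in leaves of grapevine (Vitis vinifera) that overexpress VviNAC33, a NAC transcription factor. The set was taken by identifier, with no threshold on measured values. It held 10 genes of the 34369 gene probes on the array, with 1 probe per gene. It comprised 3 hexose transporters, 3 sucrose transporters, the sugar exporter SWEET10 and 3 invertases. Of these, 9 were bright enough to be tested, against 23907 of 34369 probes in all.

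OXNAC33 plants of cv Shiraz carried VviNAC33 under the constitutive CaMV 35S promoter, in a vector that also held an eGFP cassette under an Arabidopsis ubiquitin promoter. According to the methods, 3 lines served as the replicates, so that each array stands for a separate line. Control plants of the same cultivar gave the other 3 arrays. The methods name vector-control plants, but the labels do not say which plant stands behind each control array. RNA came from young leaves in both groups, and plant age was not given in the sources used here. Each sample was hybridised to a single-colour array, and the question is which of these genes differ in level between leaves of the overexpressing lines and control leaves. In such bulk leaf samples, fewer cells of a type and less RNA per cell cannot be told apart.

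Sucrose made in leaf cells is loaded into the phloem and carried to growing organs. It is either moved intact by sucrose transporters of the SUC/SUT family and released by SWEET proteins, or split by invertases into glucose and fructose. Cell wall invertase does this outside the cell, where hexose transporters then take the products up, and vacuolar invertase does it inside the vacuole, into which tonoplast monosaccharide transporters pump hexoses. In grapevine these proteins are best known from the berry, which accumulates hexoses as it ripens, and some of them are also known to respond in leaves to pathogens and wounding.

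Levels are log2 intensities set against the 75th percentile of the same array, so that 0 is the intensity of that percentile. Changes are OXNAC33 minus control on the same log2 scale, and 1 unit is a doubling. Arrays of the 2 groups overlap when at least 1 OXNAC33 value lies within the control range or beyond it on the other side. The test was limma's moderated test, two-sided, with p-values adjusted by Benjamini-Hochberg over the 23907 probes tested and a threshold of 0.05. Replicates 1 to 3 are named in that order.

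On these arrays 69.4 to 74.9% of the gene probes were well above background, and none was saturated. VviNAC33 itself had -0.54, -3.89 and -1.0 in OXNAC33 leaves, against -5.22, -4.14 and -4.01 in control leaves. Its level in the array labelled OXNAC33 replicate 2 was thus close to that of the controls, although the groups did not overlap, and its change of 2.65 (SE 0.88) had an adjusted p of 0.116. By contrast, the study chose its 3 lines for the highest VviNAC33 expression by qPCR, and reported line OX2 as the highest of them. The labels do not say which line each array holds, and the reason for the low array value was not tested. The arrays were scanned in 2 sessions. The first held OXNAC33 replicates 1 and 2 with control replicate 1, and the second held OXNAC33 replicate 3 with control replicates 2 and 3. Results for the tested genes of the set are therefore given also within each session, and with and without the array labelled OXNAC33 replicate 2. All 5 light-harvesting and photosystem markers of green leaf were well above background on every array, and none passed the test.

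Of the 9 members tested, 1 passed the test, the hexose transporter HT5, which was higher in OXNAC33 leaves. Over all probes 5.02% passed, 1.69% as higher and 3.33% as lower. The groups did not overlap for 5 members, HT5 and the sucrose transporter VIT_18s0076g00250 being higher and HT6, GIN1 and GIN2 lower, against 35.5% of all probes (15.1% higher and 20.4% lower). The same 5 had an unadjusted p under 0.05, against 27.3% of all probes (11.7% higher and 15.6% lower). The change exceeded 1.5-fold for 6 of the 9, against 36.0% of all probes. The median change was 0.16 for the members and -0.01 for all probes tested, and the median size of the change was 0.65 for the members and 0.41 for all probes.

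**Figure D1:**
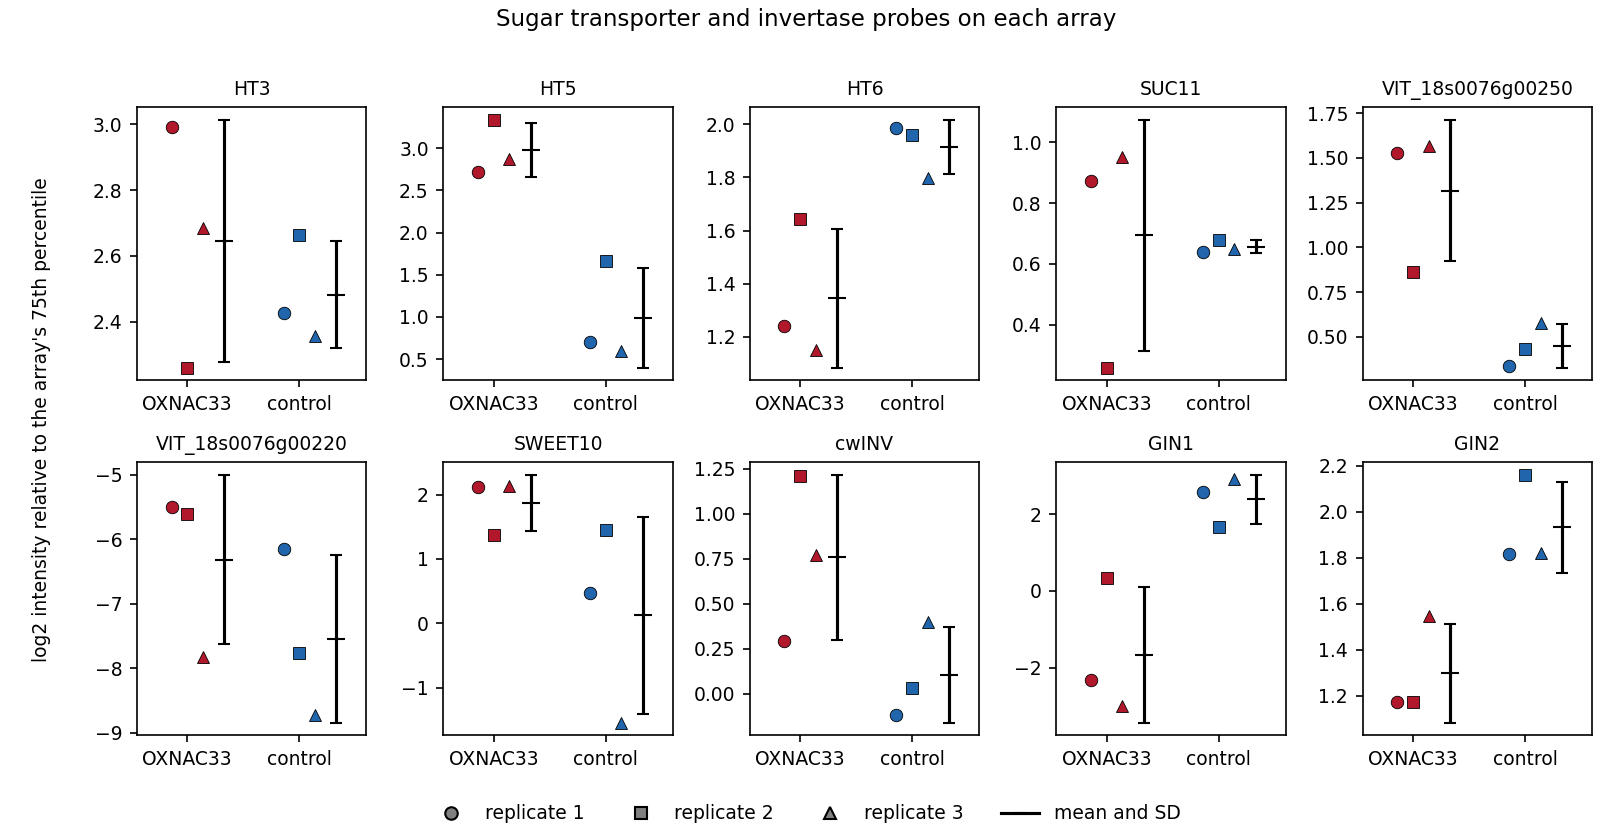
Log2 intensity of each of the 10 probes relative to the 75th percentile of its array (vertical axis, a separate scale in each panel) in OXNAC33 and control leaves. Symbols are the 3 arrays of each group and the bar beside them is the mean with SD. The arrays separate by group for HT5, HT6, VIT_18s0076g00250, GIN1 and GIN2, and VIT_18s0076g00220 (listed as SUC27) was too dim to be tested.

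HT5 (VIT_05s0020g03140) is a plasma membrane hexose transporter known in grapevine for its induction by infection and wounding. It had 2.72, 3.34 and 2.88 in OXNAC33 leaves, against 0.70, 1.67 and 0.59 in control leaves. All 3 OXNAC33 arrays lay above all 3 control arrays, with 1.05 between the closest of them, and the array labelled OXNAC33 replicate 2 was the highest. The change was 1.99 (SE 0.35, 95% interval 1.16 to 2.82), or 3.97-fold, with a limma adjusted p of 0.040. It was 2.33 within the first scan session and 1.75 within the second. With the session as a block the adjusted p was 0.058, so the call was lost. Without the array labelled OXNAC33 replicate 2 the change was 1.81 and the adjusted p 0.043.

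HT3 (VIT_11s0149g00050) is a hexose transporter of leaves and young berries. It had 2.99, 2.26 and 2.68 in OXNAC33 leaves, against 2.43, 2.66 and 2.36 in control leaves. The groups overlapped, OXNAC33 replicate 2 being the lowest array of all and OXNAC33 replicate 1 the highest. The change was 0.16 (SE 0.25, 95% interval -0.43 to 0.75; adjusted p = 0.708), and without OXNAC33 replicate 1 it was -0.01. Without OXNAC33 replicate 2 it was 0.36, with a limma adjusted p of 0.347. Within the first session it was 0.20 and within the second 0.17.

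HT6 (VIT_18s0122g00850) is the tonoplast monosaccharide transporter of the set, which loads hexoses into the vacuole. It had 1.24, 1.64 and 1.15 in OXNAC33 leaves, against 1.99, 1.96 and 1.80 in control leaves. Every OXNAC33 array lay below every control array, with the array labelled OXNAC33 replicate 2 only 0.16 below the nearest control. The change of -0.57 (SE 0.21, 95% interval -1.07 to -0.07) had an adjusted p of 0.141. It was -0.55 in the first session and -0.73 in the second. When OXNAC33 replicate 2 was left out, the change was -0.72 and the adjusted p 0.075.

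Between the plasma membrane transporter HT5 and the tonoplast transporter HT6 the direction thus differed, but HT6 did not pass the test, and the difference between the 2 genes was not tested.

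None of the sucrose transporters passed the test over all 6 arrays. SUC11 (VIT_18s0001g08210), a proton-coupled sucrose transporter, had 0.87, 0.26 and 0.95 in OXNAC33 leaves, against 0.64, 0.68 and 0.65 in control leaves. The controls lay within a narrow range, and the OXNAC33 arrays fell on both sides of it, with replicate 2 below and the other two above. The change was 0.04 (SE 0.24; adjusted p = 0.937), with -0.07 in the first session and 0.29 in the second. Without OXNAC33 replicate 2 the change was 0.26, with a limma adjusted p of 0.417. Its sign turned with quantile scaling and when the 75th percentile was taken over detected probes only, so no direction can be given for it.

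VIT_18s0076g00250 was listed in the set as the sucrose transporter SUC12. RefSeq places genes of that name on chromosome 1, whereas this identifier belongs to chromosome 18, so the gene is given here by its identifier. It had 1.53, 0.86 and 1.57 in OXNAC33 leaves, against 0.34, 0.43 and 0.58 in control leaves. The groups did not overlap, and OXNAC33 replicate 2 lay nearest to the controls, 0.28 above the highest of them. The change of 0.87 (SE 0.25, 95% interval 0.27 to 1.47), or 1.83-fold, had an adjusted p of 0.086. It was 0.86 in the first session and 1.06 in the second. When the array labelled OXNAC33 replicate 2 was left out, the change was 1.1 and the adjusted p 0.033.

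VIT_18s0076g00220 was listed in the set as SUC27, a sucrose transporter known from roots and other sinks. RefSeq places SUC27 on chromosome 18, the chromosome of this identifier. It places SUC11 and SUT2 there too, and VIT_18s0076g00250 belongs to the same chromosome. The chromosome therefore does not tell which identifier is SUC27. RefSeq lists none of these identifiers, so the name could not be checked further. The probe of VIT_18s0076g00220 was at or near background in these leaves. It had -5.50, -5.61 and -7.83 in OXNAC33 leaves, against -6.15, -7.76 and -8.72 in control leaves. The probe was well above background on 2 of 3 OXNAC33 arrays and on 0 of 3 control arrays. It was not tested, and the groups overlapped, OXNAC33 replicate 3 lying below control replicates 1 and 2. No direction or bound is therefore given for it.

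SWEET10 (VIT_17s0000g00830) belongs to the SWEET family of sugar facilitators, and in grapevine it is known from ripening berries. It had 2.12, 1.37 and 2.13 in OXNAC33 leaves, against 0.47, 1.44 and -1.55 in control leaves. The controls were widely spread, replicate 3 being far below the others, and replicate 2 of the controls lay above OXNAC33 replicate 2. The change was 1.75 (SE 0.73, 95% interval from just below 0 to 3.50; adjusted p = 0.184). It was 1.27 in the first session and 2.18 in the second. When OXNAC33 replicate 2 was left out, it was 2.0, with a limma adjusted p of 0.195. Without control replicate 3 it was 0.92, and without control replicate 2 it was 2.41, so the size of the change rested on which control arrays were used.

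**Figure D2:**
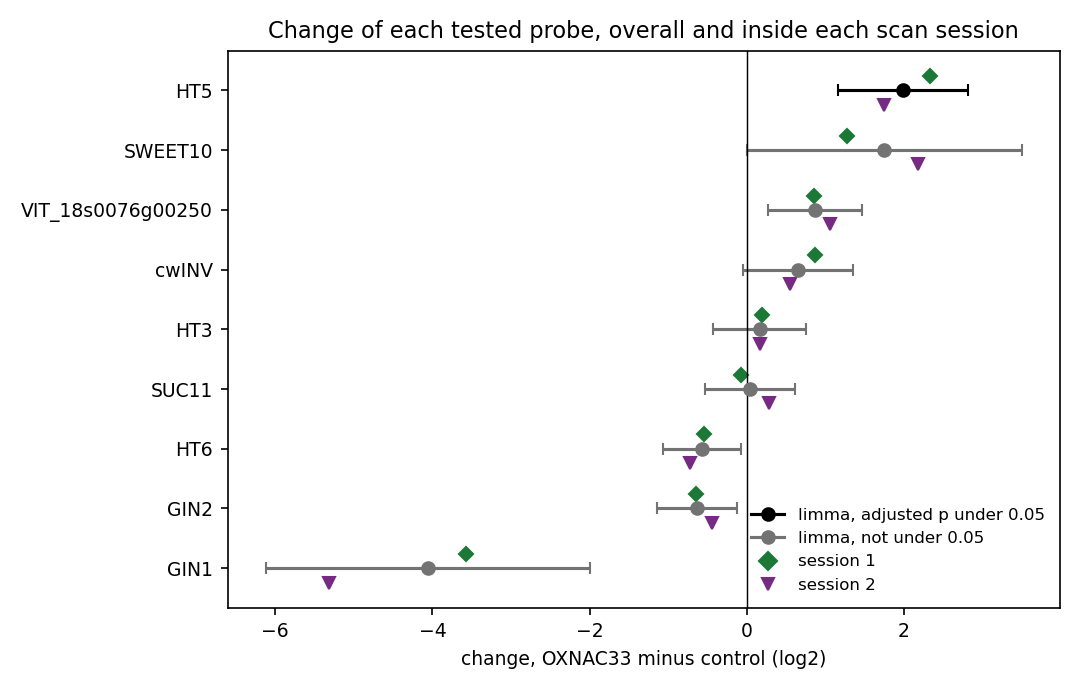
Change of the 9 tested probes, OXNAC33 minus control, on the log2 scale (horizontal axis). Circles with bars are the limma estimate and its 95% interval over all 6 arrays, diamonds the change within the first scan session and triangles that within the second. Both sessions lie on the same side of 0 for every probe other than SUC11, and HT5 is the probe that passed the adjusted threshold.

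Of the 3 invertases, the cell wall enzyme had the higher mean in OXNAC33 leaves and both vacuolar enzymes the lower, and none passed the test. cwINV (VIT_09s0002g02320), the cell wall invertase, which splits sucrose outside the cell, had 0.29, 1.21 and 0.77 in OXNAC33 leaves, against -0.12, 0.03 and 0.40 in control leaves. The groups overlapped by 1 array on each side, OXNAC33 replicate 1 lying below control replicate 3. The change was 0.65 (SE 0.29, 95% interval -0.04 to 1.35; adjusted p = 0.207), with 0.87 in the first session and 0.55 in the second. When OXNAC33 replicate 2 was left out, the change was smaller, at 0.43, with a limma adjusted p of 0.357.

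GIN1 (VIT_16s0022g00670), a vacuolar invertase first described in berries, had the largest change of the 9 members tested. It had -2.33, 0.34 and -3.02 in OXNAC33 leaves, against 2.57, 1.67 and 2.92 in control leaves. All OXNAC33 arrays lay below all control arrays, and the array labelled OXNAC33 replicate 2 lay closest, 1.33 below the lowest control. The mean was -1.67 ± 1.77 in OXNAC33 leaves and 2.39 ± 0.65 in control leaves (SD, n = 3 each). The change of -4.06 (SE 0.86, 95% interval -6.12 to -1.99), or 16.6-fold lower, had an adjusted p of 0.0504 and so stood just outside the threshold. A larger change was measured for 0.251% of all probes tested.

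For GIN1 the change was -3.57 within the first session and -5.31 within the second, and with the session as a block the adjusted p was 0.058. Without the array labelled OXNAC33 replicate 2 the change was -5.06 and the adjusted p 0.016. Leaving out any other single array gave changes between -4.41 and -3.38, with adjusted p between 0.111 and 0.156. Over the 13 other ways of processing all 6 arrays, GIN1 passed the threshold in 7, and its adjusted p ranged between 0.032 and 0.152.

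GIN2 (VIT_02s0154g00090), the second vacuolar invertase, had 1.17, 1.17 and 1.55 in OXNAC33 leaves, against 1.81, 2.16 and 1.82 in control leaves. The groups did not overlap, with 0.27 between the highest OXNAC33 array and the lowest control array. The change of -0.63 (SE 0.21, 95% interval -1.14 to -0.13), or 1.55-fold lower, had an adjusted p of 0.117. It was -0.64 in the first session and -0.45 in the second. When OXNAC33 replicate 2 was left out, the change was -0.57, with a limma adjusted p of 0.180. Both vacuolar invertases thus had lower levels on every OXNAC33 array than on any control array, and neither passed the adjusted threshold.

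The call for HT5 was open to the choice of arrays. It was kept without the array labelled OXNAC33 replicate 2 and lost without any of the other 5, with adjusted p between 0.075 and 0.130, while its change stayed between 1.79 and 2.33. Over the 13 other ways of processing all 6 arrays it passed in 7, with adjusted p between 0.018 and 0.123. Without OXNAC33 replicate 2, 3 members passed, namely HT5, VIT_18s0076g00250 and GIN1, against 2554 of the 23814 probes tested in that setting. No member passed when any other array was left out, and over all probes 0 to 9 passed then.

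**Figure D3:**
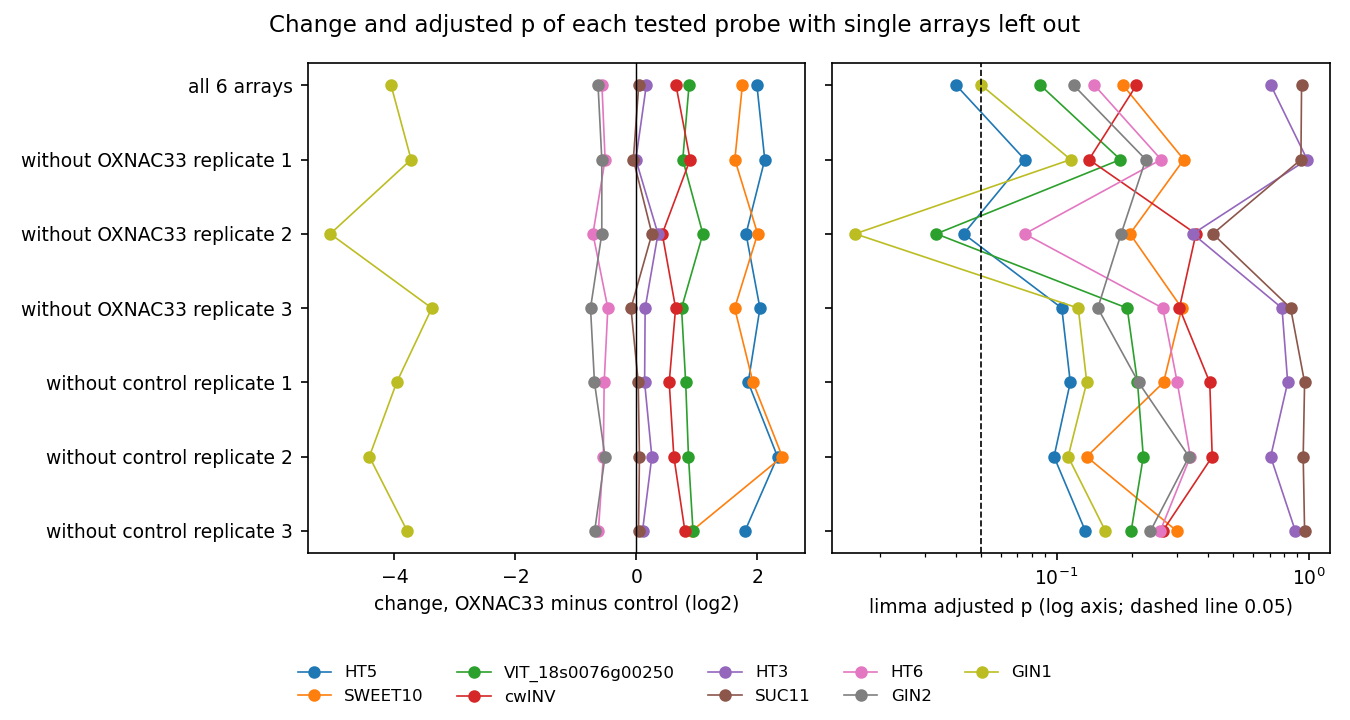
Change of each tested probe (left, log2, OXNAC33 minus control) and its limma adjusted p (right, log axis, dashed line at 0.05) over all 6 arrays and with each array left out. HT5 lies left of the dashed line over all arrays and without OXNAC33 replicate 2, where GIN1 and VIT_18s0076g00250 join it. The changes of GIN1 and SWEET10 move most.

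The array labelled OXNAC33 replicate 2 was the OXNAC33 array nearest to the control mean for 4 of the 9 members tested, or 44.4%, against 43.6% of all tested probes with a value on every array. For HT5 and cwINV it was the farthest from the controls, on the side away from them. It was also the farthest for SUC11, but there it lay below the controls and the other OXNAC33 arrays above them. That array thus stood on different sides of the other OXNAC33 arrays for different members.

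Other genes of sugar transport and sucrose cleavage were taken from the study's annotations of its other experiments, 10 genes in all. Of these, the xylose symporter-like gene, the sucrase and the inhibitor given here were also listed by the study among genes that differed on these same arrays, so their direction is no independent evidence. Of the 10, 4 entered the test and 2 passed, against 5.02% of all probes, and the groups did not overlap for any of the 4, against 35.5% of all probes. One that passed, ERD6-like 16, entered the test only through its OXNAC33 arrays, so it had to differ, and with the filter that asks for signal on every array 1 gene passed. Of the 6 not tested, 5 were too dim and 1, a sucrase, had too few spots free of outlier flags. ERD6-like 16 (VIT_05s0020g02170) belongs to a family of vacuolar sugar transporters. It had -3.28, -5.15 and -3.92 in OXNAC33 leaves, against -7.89, -6.94 and -8.57 in control leaves, and it was well above background on every OXNAC33 array and on no control array. As a description, with the background subtraction of the scanner software its level was at least 5.07-fold higher in OXNAC33 leaves. This bound did not hold with normexp background correction, where the log2 change was 0.05, with a limma adjusted p of 0.96.

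An inhibitor of the invertase and pectin methylesterase inhibitor family (VIT_11s0016g00590), whose members block either enzyme, was the other that passed. It had 1.08, 2.51 and -0.10 in OXNAC33 leaves, against 4.72, 4.03 and 4.33 in control leaves. All OXNAC33 arrays lay far below the controls, and it fell by 3.20 on the log2 scale (SE 0.63), or 9.20-fold, with an adjusted p of 0.046. Which of the 2 enzymes this protein blocks is not given in the annotation. Sucrose synthase VIT_11s0016g00470, which cleaves sucrose in the cytosol, had 2.44, 3.89 and 2.83 in OXNAC33 leaves, against 4.07, 3.97 and 4.66 in control leaves. Replicate 2 of OXNAC33 lay just below the controls and the other two well below, and the change of -1.18 (SE 0.41) had an adjusted p of 0.127. A second sucrose synthase, VIT_07s0005g00750, of the list described next, had 4.50, 4.27 and 4.27 in OXNAC33 leaves, against 3.70, 3.50 and 3.44 in control leaves. Its groups lay apart in the opposite direction, with a change of 0.80 (SE 0.19) and an adjusted p of 0.058.

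A further 11 sugar genes were annotated by the study among genes that differed on these same arrays, so their direction is no independent evidence. All 11 were tested, 4 passed and 7 did not, against 5.02% of all probes that passed. Of the 11, 8 were higher and 3 lower in OXNAC33 leaves. The β-fructofuranosidase VIT_05s0077g00510, an enzyme of the invertase class, had 5.36, 4.41 and 5.23 in OXNAC33 leaves, against 2.0, 3.0 and 2.62 in control leaves. Its groups lay well apart, with a rise of 2.46 (SE 0.36), or 5.51-fold, and an adjusted p of 0.036. A second β-fructofuranosidase, VIT_03s0038g01480, had 0.10, 0.01 and -0.54 in OXNAC33 leaves, against 0.52, 0.71 and 1.11 in control leaves. Its groups did not overlap either, and the change of -0.93 (SE 0.27) had an adjusted p of 0.085.

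Of the transporters on that list, the hexose transporter VIT_16s0013g01950 rose by 0.88 (SE 0.18; adjusted p = 0.048). Plastidic glucose transporter 1 (VIT_12s0059g01260), which exports glucose freed by starch breakdown, rose by 1.0 (SE 0.21; adjusted p = 0.048). The plastid hexose transporter VIT_14s0006g02720 had a change of -0.70 (SE 0.18) and an adjusted p of 0.070. A second inhibitor of the same family as above, VIT_00s0323g00050, had 2.22 and 1.32 on OXNAC33 replicates 2 and 3, its spot on replicate 1 being left out as an outlier, against 4.10, 3.53 and 4.27 in control leaves. Both OXNAC33 values lay below the controls, and it fell by 2.20 on the log2 scale (SE 0.38; adjusted p = 0.045). The hexose transporter HT8 (change 0.90), STP8 (0.85), MSS1 (0.64) and hexokinase-2 (0.75), which phosphorylates glucose, had higher levels on every OXNAC33 array than on any control array. With sucrose synthase VIT_07s0005g00750 they are the other 5 of the 8 higher genes, and their adjusted p lay between 0.058 and 0.104. With the scan session as a block none of the calls on either list was kept. Leaving out any array other than OXNAC33 replicate 2 also ended them, with adjusted p between 0.073 and 0.153 (for VIT_00s0323g00050, leaving out OXNAC33 replicate 2 or 3 left too few values).

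**Figure D4:**
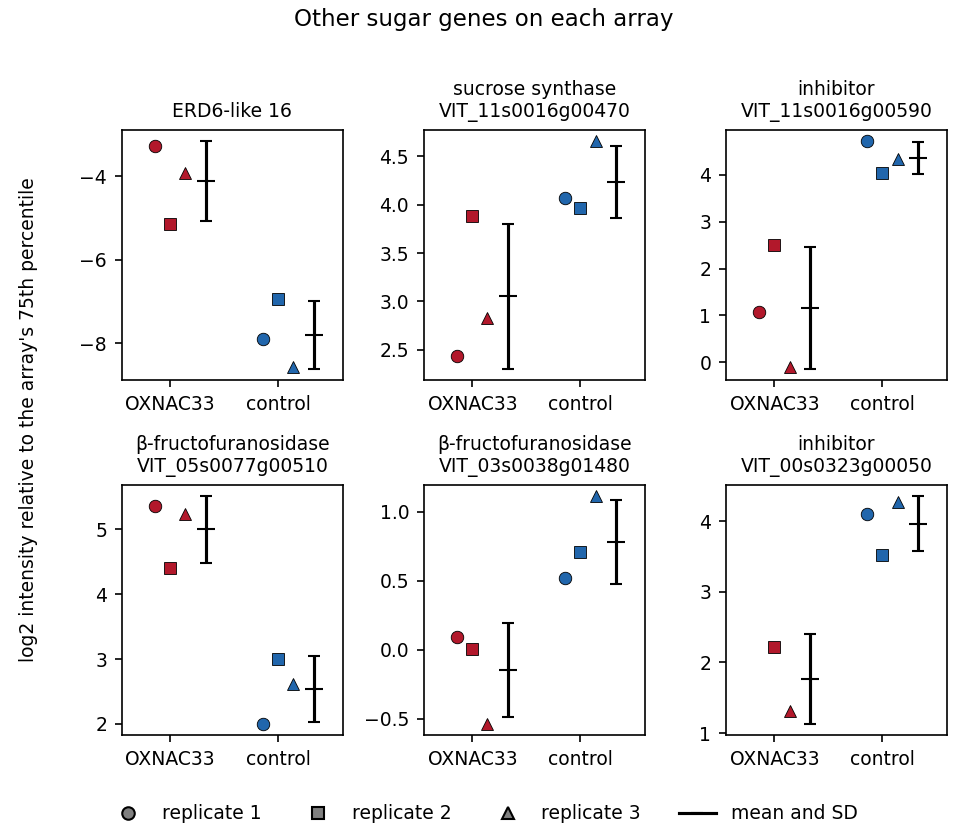
Log2 intensity relative to the array's 75th percentile (vertical axis, a separate scale in each panel) for 6 further sugar genes in OXNAC33 and control leaves. Symbols are arrays and the bar is the mean with SD, over 2 OXNAC33 arrays for VIT_00s0323g00050. The groups do not overlap in any panel, and β-fructofuranosidase VIT_05s0077g00510 and ERD6-like 16 are higher in OXNAC33 leaves while the other 4 are lower.

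Vascular markers were read beside these genes, because sucrose transporters are abundant in phloem. The summed intensity of the 7 markers, as a percentage of the 75th percentile of the array, was 1477 to 1988 in OXNAC33 leaves and 485 to 931 in control leaves, and none of them was at 0. PP2-A9, a phloem lectin, alone made up 88.4 to 96.3% of this sum on every array. The other 6 markers summed to 56.9 to 92.7 in OXNAC33 leaves and 56.3 to 87.0 in control leaves, ranges that overlapped. Of the 7, 5 were tested and 0 passed, with 1 at an unadjusted p under 0.05. That one was PP2-A9, with 4.24, 3.81 and 3.88 in OXNAC33 leaves, against 3.08, 2.89 and 2.10 in control leaves, a change of 1.29 with an adjusted p of 0.060. A second phloem lectin had a change of 0.78, CESA8, a cellulose synthase of secondary walls, one of -0.30, and the 2 laccases tested ones of 0.35 and 0.28, all with overlapping groups. A laccase too dim to be tested, VIT_18s0122g00690, had -8.21, -4.58 and -5.12 in OXNAC33 leaves, against -8.46, -8.95 and -8.96 in control leaves. Its groups did not overlap, and it was well above background on OXNAC33 replicates 2 and 3 only. Another untested laccase was well above background on no array. The part of vascular tissue in the levels of HT5, VIT_18s0076g00250 and GIN1 was not tested.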

How the data were processed

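RNA of young leaves (3 OXNAC33 and 3 control samples) was measured on 6 single-colour Agilent arrays. The deposited intensity values are scanner output of Feature Extraction 10.5.1.1, background-subtracted by that software but not normalised between arrays. The authors' value table holds the same intensity signals multiplied by 1 factor per array: all its values lay within 1% of such a multiple. The log2 of the processed signal was reduced by the 75th percentile of each array, and control spots and spots with outlier flags were left out. Probes that every array of 1 group or both measured well above background, with at least 2 values in each group, were tested with limma 3.58.1 in R 4.3.3. The fit was tested on simulated data. All members were named; of the other sugar genes, those past the threshold and, on each list, the largest change in each direction among tested transporters, sucrose-cleaving enzymes and inhibitors were chosen by rule; sucrose synthase VIT_07s0005g00750, HT8, STP8, MSS1 and hexokinase-2 were named after their values were seen. Members and lists were chosen with earlier results of these data known. Replicates of OXNAC33 are lines; whether the controls were separate plants is not stated, so p-values measure the spread between these samples. The number of arrays limits the precision. No genome, coordinates or sequences were used here. Alternatives covered scaling, background correction, filters, session, replicate number, variance model and single arrays.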

Additional observations from a re-analysis of the deposited data

How the results depend on the processing

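Over all probes, 1200 passed (405 higher, 795 lower), against 0 with normexp background correction, 0 without a filter on dim probes, 0 with the session as a block, and 1806 with a trended and robust variance. A t-test of the kind the methods name, run on the probes and scaling used here, gave 5805 unadjusted and 2 after adjustment. The study's own unadjusted count was lower, and the reason for the difference was not tested. Where limma called 0, 5188 (normexp), 6314 (no filter) and 6844 (session block) probes had an unadjusted p under 0.05. Leaving out single arrays gave 0 to 2554, the highest without OXNAC33 replicate 2. The split was 596 higher and 741 lower with median scaling, and 657 and 389 with spike-in scaling. The median change of all probes shifted by 0.12 with median scaling, 0.19 with spike-in scaling and -0.22 with normexp.

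Members that passed numbered 1, against 2 with quantile, median, detected-probe or spike-in scaling, a stricter filter, or a trended and robust variance. They numbered 0 with normexp, no filter, the session block or the adjusted t-test, and 5 by the unadjusted t-test. Without single arrays they numbered 0 to 3. Of the wider sugar genes 2 passed, against 1 with the stricter filter, which leaves out dim probes, and 0 with normexp, no filter, the session block or the adjusted t-test. Without single arrays they numbered 0 to 3. ERD6-like 16 had a change of 0.05 with normexp. The sign turned for SUC11 with quantile scaling (-0.0061), with detected-probe scaling (-0.021), without OXNAC33 replicate 1 (-0.052) and without OXNAC33 replicate 3 (-0.091), and for HT3 without OXNAC33 replicate 1 (-0.010). Without single arrays SUC11 ranged between -0.091 and 0.26, and HT3 between -0.010 and 0.36. The other 7 members tested kept their direction in all alternatives run. For all of these the cause was not tested.

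The samples share only a replicate number. Deviations from the group means of same-numbered samples correlated at 0.26, -0.22 and 0.18, and not every sample correlated best with its own number. With the replicate number as a block 0 probes, 0 members and 0 wider sugar genes passed, and 5997 probes had an unadjusted p under 0.05. HT5 then had a change of 1.99 and an adjusted p of 0.098. Spike-in scaling and normexp on median signals were chosen after seeing the data. The planned normexp on mean signals was not run, because that column was not among those used here. A dim probe gives at most a bound, and none is given for VIT_18s0076g00220 (listed as SUC27).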
